A study of Mus musculus with 16 samples.

Results

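The hair bundle is the mechanosensory organelle of the hair cell (HC), and 36 genes that build it, anchor it or carry its transduction current were examined in the inner ear of mice that misexpress the miR-183 cluster. The genes were chosen by name, as bundle, tip link, transduction and HC deafness genes, and not by a cutoff on their signal. Earlier results of these data were known when they were chosen. A probeset that the platform table pairs with 1 gene alone was found for 33 of the 36, among 19937 genes named in that way. *Cib2*, *Whrn* and *Grxcr1* were not analysed here. Where a gene had more than 1 such probeset, the one with the highest mean over the 16 arrays stood for it.

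Total RNA had been hybridised to Affymetrix MoGene 1.0 arrays, 1 per sample. The groups were the P18 cochlea of Tg/Tg mice (n = 3), the P18 cochlea of WT mice (n = 3), the P5 organ of Corti (OC) of Tg/Tg mice (n = 5) and the P5 OC of WT mice (n = 5). Tg/Tg mice were homozygous for Tg(GFAP-*Mir183,Mir96,Mir182*)1MDW on the FVB/NCrl background, in which a human GFAP promoter, active in supporting cells (SCs) and also in Schwann cells, drives the 3 miRNAs. In situ staining in the paper located the misexpression in SCs at P18, but gave no clear genotype difference at P5. All Tg/Tg mice came from 1 transgenic line and so shared 1 insertion site. The P18 dissection took the cochlea without the vestibular labyrinth, whereas the P5 dissection took the sensory epithelium, so age and tissue changed together. The names call the samples of a group biological replicates, but the sources used here do not state whether a sample was 1 animal or a pool, so the p-values rest on the spread of these samples, part of which may be technical.

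Samples were grouped by their names, although other label fields conflicted with the name of every sample (in age for 12, in tissue for 12 and in genotype for 8 of the 16). The transgene followed the names. The mean log2 signal of the probesets for *Mir182*, *Mir96*, *Mir183* and *Prm1*, whose sequence is part of the construct, was 7.65 to 7.77 on the Tg/Tg and 4.24 to 4.42 on the WT arrays at P18, and 7.64 to 8.48 on the Tg/Tg and 4.43 to 4.96 on the WT arrays at P5. Arrays of the P18 cochlea were tighter than those of the P5 OC, with a median SD over the measured members of 0.087 in Tg/Tg and 0.063 in WT at P18, against 0.164 in Tg/Tg and 0.181 in WT at P5. At P5 the third Tg/Tg array stood apart. Without it 2907 probesets were called at P5 in place of 212, where leaving out any other single array gave 140 to 594, and P5 results are therefore given with and without it. Its weight when arrays were weighted by their fit was the lowest (0.317), though those of the second and first WT arrays at P5 (0.354 and 0.476) were also low. The mean log2 signal of 3 Y-linked genes was 8.86 on the first Tg/Tg array and 3.90 to 4.06 on the other 4 at P5, against 3.95 on the first WT array and 8.61 to 8.96 on the other 4, so that this level and genotype were nearly confounded in the P5 OC. At P18 it was 7.65 to 7.66 in Tg/Tg and 7.22 to 7.34 in WT.

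Stereocilia are rods of crosslinked actin arranged in rows of graded height. Fine tip links pull on the transduction channels when the bundle is deflected, myosins move and tension the parts, and Usher proteins hold the links to the actin core. Mutation of most of these genes causes deafness in mice or humans. In the mouse cochlea the bundle is still maturing in the first days after birth. HCs are a small share of the cells in either dissection, and in bulk RNA fewer HCs and less RNA per HC cannot be told apart.

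The mature miRNAs of the transgene are shown because they define the Tg/Tg group, with the seed (bases 2 to 8) in capitals. The endogenous copies of all 3 lie on the minus strand of chromosome 6 in the GRCm38.p6 build, from RefSeq. They are at chr6:30169711-30169732, chr6:30169506-30169528 and chr6:30165962-30165986 in the order given. These are not the coordinates of the transgene, which the paper maps to another chromosome. No pair of the 3 miRNAs has the same 7-base seed.
mmu-miR-183-5p: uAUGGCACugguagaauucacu
mmu-miR-96-5p: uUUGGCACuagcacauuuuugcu
mmu-miR-182-5p: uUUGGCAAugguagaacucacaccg

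At P18, 1 of the 33 measured members changed with genotype at an adjusted p under 0.05. It was *Tprn*, which encodes taperin, a protein of the stereocilia taper region near the base, and it fell. Over all 34760 probesets 0.443% were called in this comparison. The other 32 members did not pass. An unadjusted p under 0.05 was found for 5 of the 33, *Tprn* among them, beside 8.77% of all probesets. The median log2 change of the 33 was -0.07, beside -0.02 over all probesets, and the changes ran between -0.42 and 0.62. The plot of genotype effects with 95% intervals shows the members by role.

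**Figure D1:**
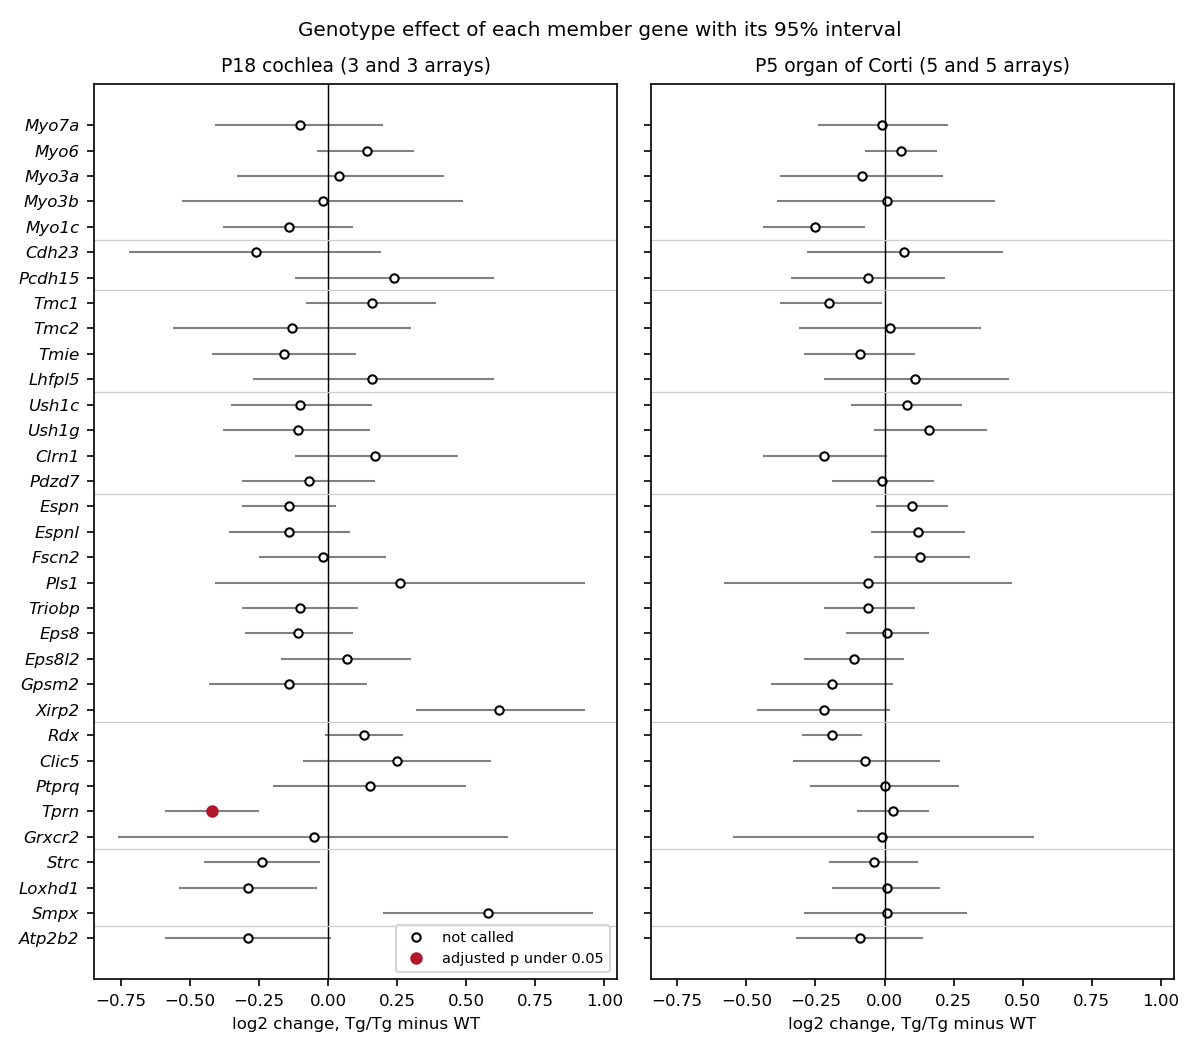
Log2 change (Tg/Tg minus WT, x axis) of each of the 33 measured members (y axis, ordered by role, lines between roles) at P18 (left) and P5 (right), with 95% intervals from the fit over all arrays. *Tprn* at P18, at -0.42, is the filled point, and no P5 point is filled.

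*Tprn* (probeset 10469957) had log2 signals of 6.92, 7.0 and 7.02 in Tg/Tg cochleae, against 7.38, 7.36 and 7.46 in WT cochleae at P18. Every Tg/Tg value lay below every WT value, with a gap several times the spread within either group. The means were 6.98 ± 0.05 in Tg/Tg and 7.40 ± 0.05 in WT (SD, n = 3 each), a log2 change of -0.42 (SE 0.08, 95% interval -0.59 to -0.25), or 1.34-fold lower, with an adjusted p = 0.025 in limma. At P5 the same probeset gave 6.65, 6.56, 6.80, 6.77 and 6.73 in Tg/Tg OC and 6.59, 6.66, 6.66, 6.78 and 6.69 in WT OC. The P5 groups overlapped throughout, with a log2 change of 0.03 (SE 0.06, adjusted p = 0.84). The P18 call needed all 6 P18 arrays, since it was lost without any one of them (adjusted p = 0.081 to 0.17) while the change stayed between -0.44 and -0.39. It was also lost after quantile normalization (adjusted p = 0.06) and in a fit with a block for replicate number (adjusted p = 0.1).

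*Xirp2* and *Smpx* had the largest positive changes at P18, and neither passed the test. *Xirp2* encodes an actin-binding Xin-repeat protein known from hair bundles and from striated muscle. Its log2 signals (probeset 10472426) were 6.18, 6.47 and 6.20 in Tg/Tg cochleae, against 5.64, 5.48 and 5.85 in WT cochleae. The groups did not overlap, and the log2 change was 0.62 (SE 0.15, 95% interval 0.32 to 0.93, adjusted p = 0.092). At P5 the Tg/Tg values of 5.56, 5.52, 5.96, 5.63 and 5.69 overlapped the WT values of 5.64, 5.88, 6.08, 5.74 and 6.11, with a change of -0.22 (SE 0.11, adjusted p = 0.34).

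*Smpx* encodes a small muscle protein that, when mutated, causes X-linked deafness in humans. Its log2 signals (probeset 10602756) were 8.12, 8.24 and 8.35 in Tg/Tg and 7.62, 7.73 and 7.61 in WT cochleae at P18. Again the groups were apart, with a log2 change of 0.58 (SE 0.18, 95% interval 0.20 to 0.96, adjusted p = 0.25). At P5 both genotypes averaged nearly the same, 8.75 ± 0.33 in Tg/Tg and 8.74 ± 0.22 in WT OC (SD, n = 5 each).

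Skeletal muscle genes moved with these values at P18. Of 22 muscle markers 17 rose in Tg/Tg, none fell, and their median log2 change was 1.69. Their mean log2 signal was 7.98 to 8.06 on the Tg/Tg and 6.23 to 6.29 on the WT arrays at P18, and at P5 it was 5.87 to 6.08 in Tg/Tg and 5.75 to 6.06 in WT. *Myh1*, a fast skeletal myosin heavy chain, had a log2 change of 3.44 at P18 (adjusted p = 2.2e-12). The part of muscle RNA in the *Xirp2* and *Smpx* values was not tested.

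**Figure D2:**
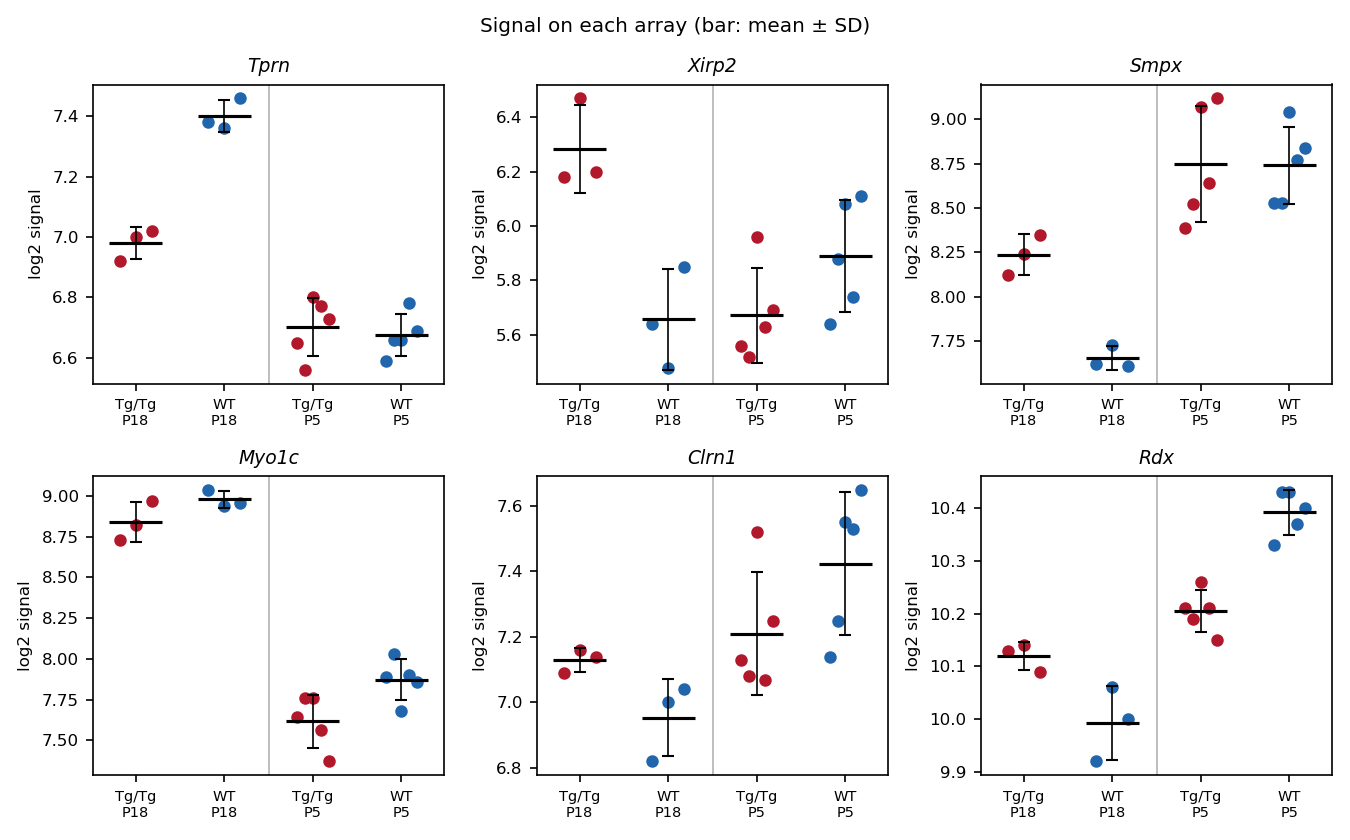
Log2 signal (y axis) of 6 members on every array, as points, with the mean and SD of each group (P18 cochlea left, P5 OC right, Tg/Tg in red and WT in blue). *Tprn* is lower, and *Xirp2* and *Smpx* are higher, on all 3 Tg/Tg arrays than on all 3 WT arrays at P18, whereas *Rdx* at P5 is lower on all 5 Tg/Tg arrays.

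Many members separated the P18 arrays by a small margin without passing the test. All 3 Tg/Tg values lay above all 3 WT values for 10 of the 33 (30.3%, beside 14.0% of all probesets), and below for 11 (33.3%, beside 13.6%). The 10 higher members were *Xirp2*, *Smpx*, *Clic5*, *Pls1*, *Pcdh15*, *Clrn1*, *Tmc1*, *Ptprq*, *Myo6* and *Rdx*. The 11 lower ones were *Tprn*, *Loxhd1*, *Atp2b2*, *Cdh23*, *Strc*, *Espn*, *Espnl*, *Gpsm2*, *Tmc2*, *Eps8* and *Triobp*. Members of 1 complex thus lay on both sides, though with changes that did not pass. The tip link is a pair of cadherins, and *Cdh23*, its upper part, had a log2 change of -0.26 (adjusted p = 0.83) where *Pcdh15*, its lower part, had 0.24 (adjusted p = 0.79). A second, dimmer *Pcdh15* probeset had 0.04 (adjusted p = 0.97). The pore-forming channel subunits *Tmc1* and *Tmc2* had changes of 0.16 and -0.13 (adjusted p = 0.79 and 0.93).

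The remaining P18 changes were small in each role. Among the myosin motors, which carry cargo along the actin core, *Myo6* had 0.14, *Myo3a* 0.04, *Myo3b* -0.02, *Myo7a* -0.10 and *Myo1c* -0.14 on the log2 scale (adjusted p = 0.71 to 0.99 over the 5). The channel partners *Lhfpl5* and *Tmie* had 0.16 and -0.16. Of the Usher and ankle-link scaffolds, *Clrn1* had 0.17, *Pdzd7* -0.07, and *Ush1c* and *Ush1g*, which encode harmonin and Sans at the upper tip link anchor, had -0.10 and -0.11. None of these reached an adjusted p under 0.05.

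Among proteins that bundle actin or cap its tips, *Pls1* (plastin, an actin crosslinker) had a log2 change of 0.26 with a wide interval (-0.41 to 0.93). *Espn* and *Espnl*, which encode espins, both had -0.14, *Fscn2* (a fascin) had -0.02, and *Triobp*, which bundles the actin of the rootlet, had -0.10. The tip proteins *Eps8*, *Eps8l2* and *Gpsm2* had -0.11, 0.07 and -0.14. At the base of the bundle, *Clic5*, *Ptprq* and *Rdx*, which link membrane to actin there, had 0.25, 0.15 and 0.13, and *Grxcr2* had -0.05. These values share the limit that the fit's variance is pooled over the tighter P18 and the wider P5 arrays.

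*Strc* and *Loxhd1*, 2 deafness genes, had lower values on every Tg/Tg array. *Strc* encodes stereocilin of the top connectors between stereocilia and had 5.59, 5.83 and 5.73 in Tg/Tg cochleae, against 6.02, 5.97 and 5.86 in WT cochleae. Its log2 change was -0.24 (adjusted p = 0.49). *Loxhd1*, needed for HC function in mouse, had 6.0, 6.13 and 6.10 in Tg/Tg and 6.49, 6.33 and 6.28 in WT cochleae, a change of -0.29 (adjusted p = 0.47). A second *Loxhd1* probeset had -0.22 (adjusted p = 0.79). The groups were apart for both genes, and neither passed.

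*Atp2b2* encodes the plasma membrane calcium pump of the bundle and is also known from cerebellar neurons. It had log2 signals of 8.58, 8.68 and 8.70 in Tg/Tg cochleae, against 8.96, 8.97 and 8.89 in WT cochleae, with a change of -0.29 (95% interval -0.59 to 0.01, adjusted p = 0.59). Cerebellar and brain neuron markers moved with it. Of 18 measured, 9 fell and none rose at P18, and their mean log2 signal was 6.93 to 6.96 on the Tg/Tg and 7.56 to 7.59 on the WT arrays. *Gabra6*, a receptor subunit of cerebellar granule cells, had a change of -1.87 (adjusted p = 2.8e-10). Their part in the *Atp2b2* values was not tested.

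HC markers outside the 36 gave no call at P18. None of 17 measured passed in limma and 1 had an unadjusted p under 0.05, as had 8.77% of all probesets. Their median log2 change was -0.05, and their mean log2 signal was 7.26 to 7.31 on the Tg/Tg arrays and 7.29 on the WT arrays. The smallest adjusted p belonged to *Slc26a5*, which encodes prestin of outer HCs, with a change of 0.49 (adjusted p = 0.18). Of 25 further genes listed for the hair bundle, not all of them specific to it (*Actb* and *Otoa* are among them), none passed. Of these 25, 1 had an unadjusted p under 0.05, and their median was -0.04. Among 18 SC markers 1 rose, *Fabp7*, with a change of 0.94 (adjusted p = 1.3e-05).

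Some other fits called more members at P18, and some called none. With each age fitted separately *Smpx* also passed (adjusted p = 0.04), beside *Tprn* (adjusted p = 0.042). With P5 replicates 1 to 2 and 3 to 5 set apart as a block, *Xirp2* (adjusted p = 0.045) and *Smpx* (adjusted p = 0.037) passed with *Tprn*. Among all probesets these fits called 475 and 223, in place of 154.

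At P5 none of the 33 members passed in limma, where 0.610% of all probesets did. At an unadjusted p under 0.05 there were 3 members (*Rdx*, *Myo1c* and *Tmc1*), a smaller share than the 16.4% of all probesets. In a fit that held the mean Y-linked signal as a term, 0 members and 76 of all probesets were called. At P5 that signal and genotype cannot be fully told apart. The median log2 change was -0.01, the same as over all probesets, and the range was -0.25 to 0.16. The widest 95% intervals reached -0.58 for *Pls1* and 0.54 for *Grxcr2*, so changes up to those sizes were not excluded for them. The intervals are not adjusted over probesets, so they do not mark the smallest change that would have been called.

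*Myo1c*, an unconventional myosin linked to adaptation of the transduction current, had the largest P5 change. Its log2 signals (probeset 10378697) were 7.64, 7.76, 7.76, 7.56 and 7.37 in Tg/Tg OC, against 7.89, 8.03, 7.68, 7.90 and 7.86 in WT OC. Only the third WT array fell within the Tg/Tg range, and the change was -0.25 (SE 0.09, 95% interval -0.44 to -0.07, adjusted p = 0.21). With the Y-linked signal in the fit the change was also -0.25, with an adjusted p = 0.74.

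*Clrn1*, which encodes the Usher protein clarin, had 7.13, 7.08, 7.52, 7.07 and 7.25 in Tg/Tg OC and 7.14, 7.25, 7.55, 7.53 and 7.65 in WT OC. The groups overlapped, with a change of -0.22 (SE 0.11, adjusted p = 0.32). *Xirp2* came between *Myo1c* and *Clrn1* in size, with the values given above. With the Y-linked signal in the fit the change was smaller for both *Clrn1* (-0.15, adjusted p = 0.81) and *Xirp2* (-0.18, adjusted p = 0.8). *Tmc1* had a change of -0.20 (adjusted p = 0.28).

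*Rdx*, which encodes radixin, a linker of membrane to actin, was the only member whose P5 groups did not overlap, beside 1.67% of all probesets. It is named here after its values were seen, as are *Gpsm2* and *Grxcr2* below. *Rdx* had 10.21, 10.19, 10.26, 10.21 and 10.15 in Tg/Tg OC, against 10.33, 10.43, 10.43, 10.37 and 10.40 in WT OC. The change was small and tight, -0.19 (SE 0.05, 95% interval -0.30 to -0.08), with an adjusted p = 0.14. On the first array of each genotype, where the Y-linked level went against that of its group, the values were 10.21 in Tg/Tg and 10.33 in WT. These are single arrays, and with the Y-linked signal in the fit *Rdx* was not called. At P18 the values lay the other way, 10.13, 10.14 and 10.09 in Tg/Tg against 9.92, 10.06 and 10.00 in WT cochleae, with a change of 0.13 (adjusted p = 0.63).

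Without the third Tg/Tg array 2 members passed at P5, *Rdx* with a change of -0.20 (SE 0.05, adjusted p = 0.035) and *Gpsm2* with -0.29 (SE 0.08, adjusted p = 0.042), in limma. The share of all probesets called then was 8.36%, so that 2 of 33 was no higher than the background. *Gpsm2*, which sets the height and polarity of stereocilia rows, had 7.43, 7.45, 8.01, 7.58 and 7.62 in Tg/Tg OC and 7.54, 7.88, 7.84, 7.83 and 7.96 in WT OC. The third Tg/Tg array held the highest of its 10 values. *Myo1c* had -0.29 (adjusted p = 0.056) and *Clrn1* -0.29 (adjusted p = 0.075) without that array.

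Myelin genes, in contrast, were called at P5. All 7 Schwann markers measured fell, with a median log2 change of -1.81, and *Mag*, a myelin glycoprotein, had -2.23 (adjusted p = 4.7e-08). At P5 none of 17 HC markers, 25 further bundle genes and 18 SC markers passed in limma, with medians of -0.05, -0.08 and 0.00. At an unadjusted p under 0.05 there were 2, 3 and 2 of them, none a higher share than the 16.4% of all probesets.

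The spread at P5 had a shape that both genotypes shared. For 10 of the 33 members (30.3%) all 6 values of replicates 3 to 5 lay above all 4 values of replicates 1 and 2, where 2.74% of all probesets did so, and for none of the 33 did they lie below, where 2.18% did. The labels name no batch, and the pattern was noticed in the values, so it is given with no test. The mean of replicates 3 to 5 was above that of replicates 1 and 2 in both genotypes for 27 members and below it in both for 2. The median difference was 0.20 on the log2 scale in either genotype, and for 25 of the 33 members the average difference was larger than the genotype change.

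**Figure D3:**
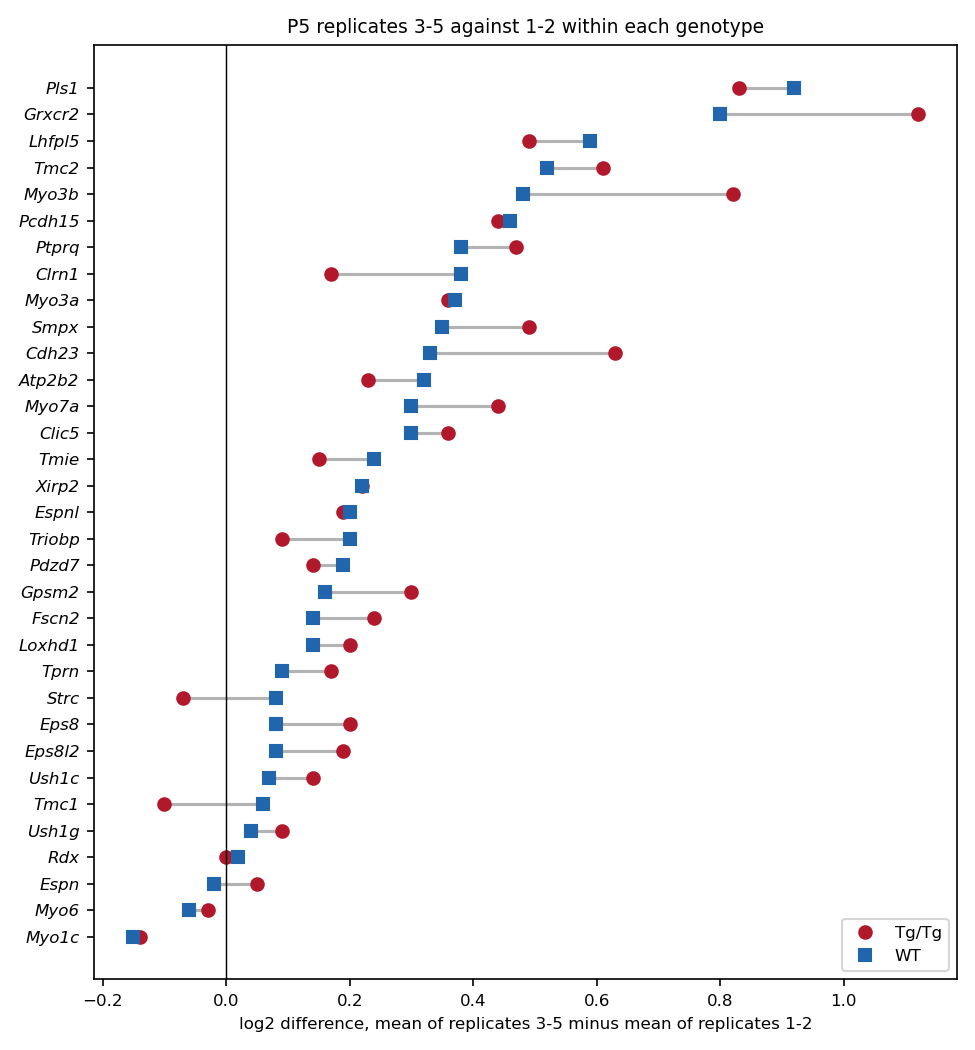
Log2 difference at P5 between the mean of replicates 3 to 5 and the mean of replicates 1 and 2 (x axis) for each member (y axis, sorted by the WT difference), Tg/Tg as red circles and WT as blue squares. Most points lie right of 0 in both genotypes, with *Grxcr2* reaching 1.12 in Tg/Tg and *Pls1* reaching 0.92 in WT.

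*Grxcr2*, which encodes a protein of the stereocilia base, spanned the most. It had 7.53, 7.55, 8.87, 8.62 and 8.48 in Tg/Tg OC and 7.69, 7.79, 8.70, 8.40 and 8.50 in WT OC. The genotypes overlapped fully, with a log2 change of -0.01 (adjusted p = 0.99), while the first 2 replicates of each lay well below the other 3. *Pls1* had the same split, with 8.65, 8.70, 9.83, 9.54 and 9.12 in Tg/Tg and 8.50, 8.85, 9.61, 9.56 and 9.63 in WT OC. The other 8 were *Myo7a*, *Myo3b*, *Pcdh15*, *Tmc2*, *Lhfpl5*, *Ptprq*, *Tprn* and *Smpx*. *Myo1c* and *Myo6* ran the other way in both genotypes, by -0.14 and -0.03 in Tg/Tg and by -0.15 and -0.06 in WT.

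Other lists showed the same split, and among SC markers the share wholly above was larger than among the members. Replicates 3 to 5 lay wholly above for 4 of 17 HC markers, 4 of 25 further bundle genes and 8 of 18 SC markers, and wholly below for 0, 2 and 1 of them. Within replicates 1 and 2 alone, and within replicates 3 to 5 alone, the genotype changes of *Myo1c* were -0.26 and -0.25, those of *Xirp2* -0.22 and -0.22, and those of *Rdx* -0.18 and -0.19. Those of *Clrn1* were -0.09 and -0.30 and those of *Tmc1* -0.10 and -0.26, so that these 2 were larger in replicates 3 to 5. In replicates 3 to 5 the mean Y-linked signal was 3.90 to 4.06 in Tg/Tg and 8.61 to 8.82 in WT. In replicates 1 and 2 it was 8.86 and 3.93 in Tg/Tg, and 3.95 and 8.96 in WT. Genotype and Y-linked level thus cannot be told apart within replicates 3 to 5, and the part of that level was not tested.

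**Figure D4:**
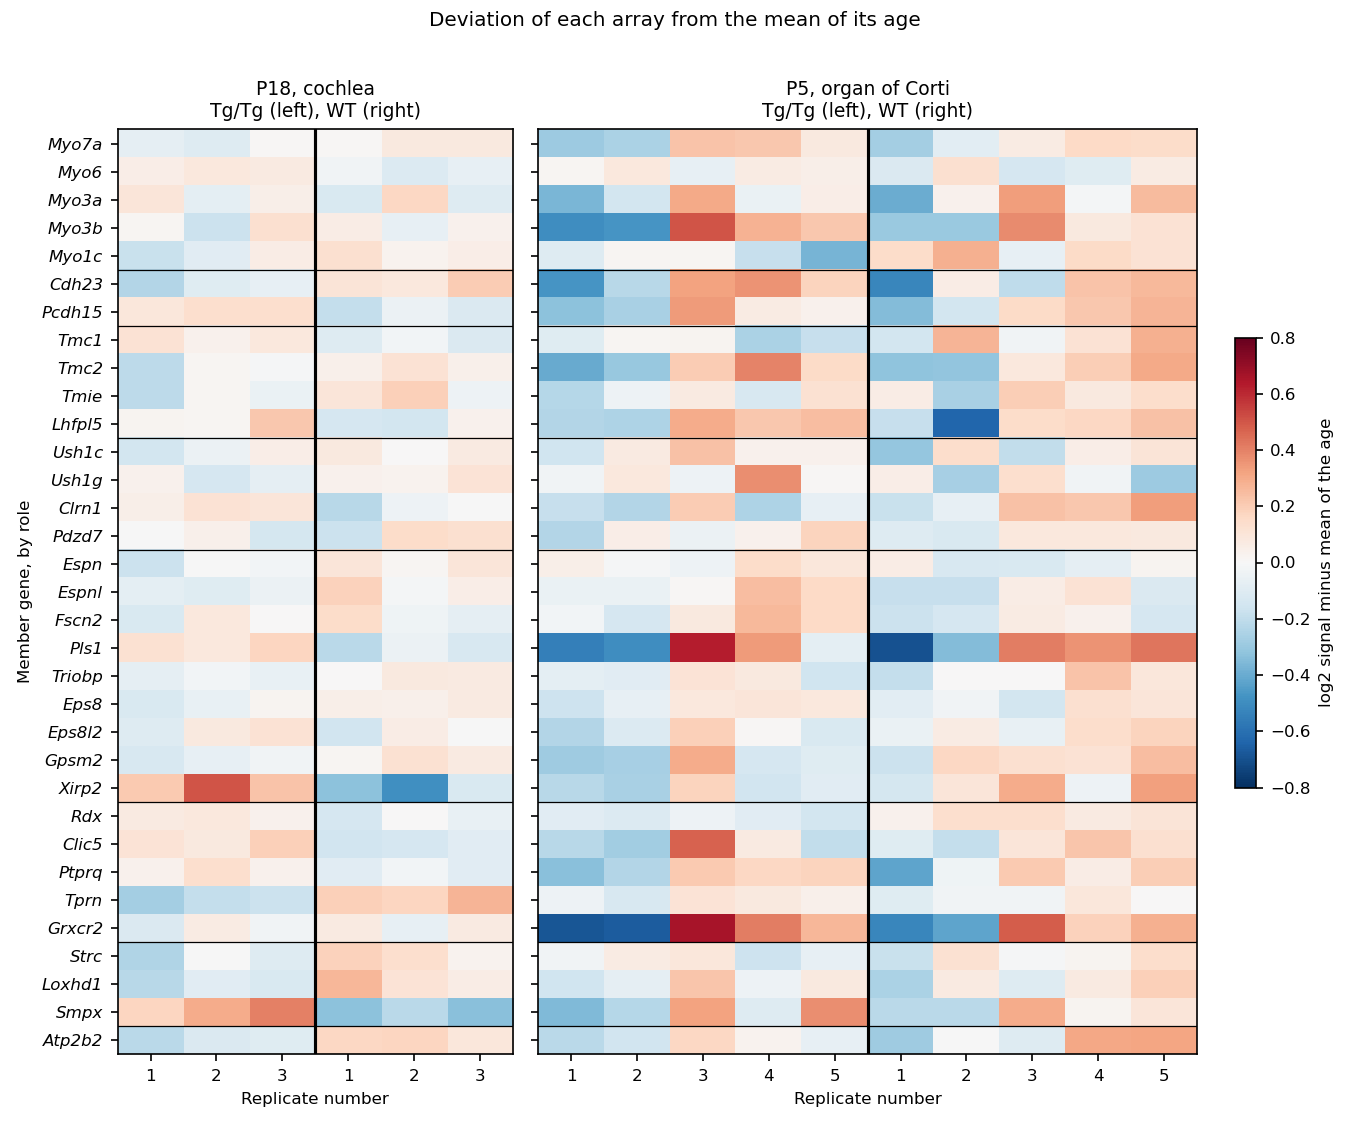
Deviation of the log2 signal of each member (rows, by role) on each array (columns, by replicate number) from the mean over all arrays of that age, red above and blue below, for P18 (left panel) and P5 (right panel), with Tg/Tg left of WT in each. At P5 the first 2 Tg/Tg columns and the first WT column are blue for most members, the second WT column is mixed, and at P18 *Tprn*, *Xirp2* and *Smpx* are the rows that change colour most between genotypes.

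No member's genotype effect differed between P18 and P5 at an adjusted p under 0.05 in limma, where 0.596% of all probesets did. At an unadjusted p under 0.05 there were 7 of the 33, beside 14.3% of all probesets. The nearest were *Xirp2*, with an effect at P18 minus that at P5 of 0.85 (SE 0.18, adjusted p = 0.053), and *Tprn*, with -0.45 (SE 0.10, adjusted p = 0.061). *Rdx* followed with 0.32 (SE 0.08, adjusted p = 0.12). Single P5 arrays moved the nearest 2 across the threshold, since both passed without the third Tg/Tg array (adjusted p = 0.018 for *Xirp2* and 0.047 for *Tprn*), *Xirp2* passed without the first WT array (adjusted p = 0.027), and *Tprn* passed without the second Tg/Tg array (adjusted p = 0.037).

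In the WT P18 cochlea 21 of the 33 members were lower than in the WT P5 OC at an adjusted p under 0.05, where 30.2% of all probesets were, and 3 were higher, where 19.8% were. The median log2 change was -0.48, beside -0.06 over all probesets, and 10 members differed by at least 2-fold. Age and tissue cannot be told apart in this comparison, and a whole cochlea holds many cells besides the sensory epithelium. After quantile normalization 17 were lower and 6 higher.

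**Figure D5:**
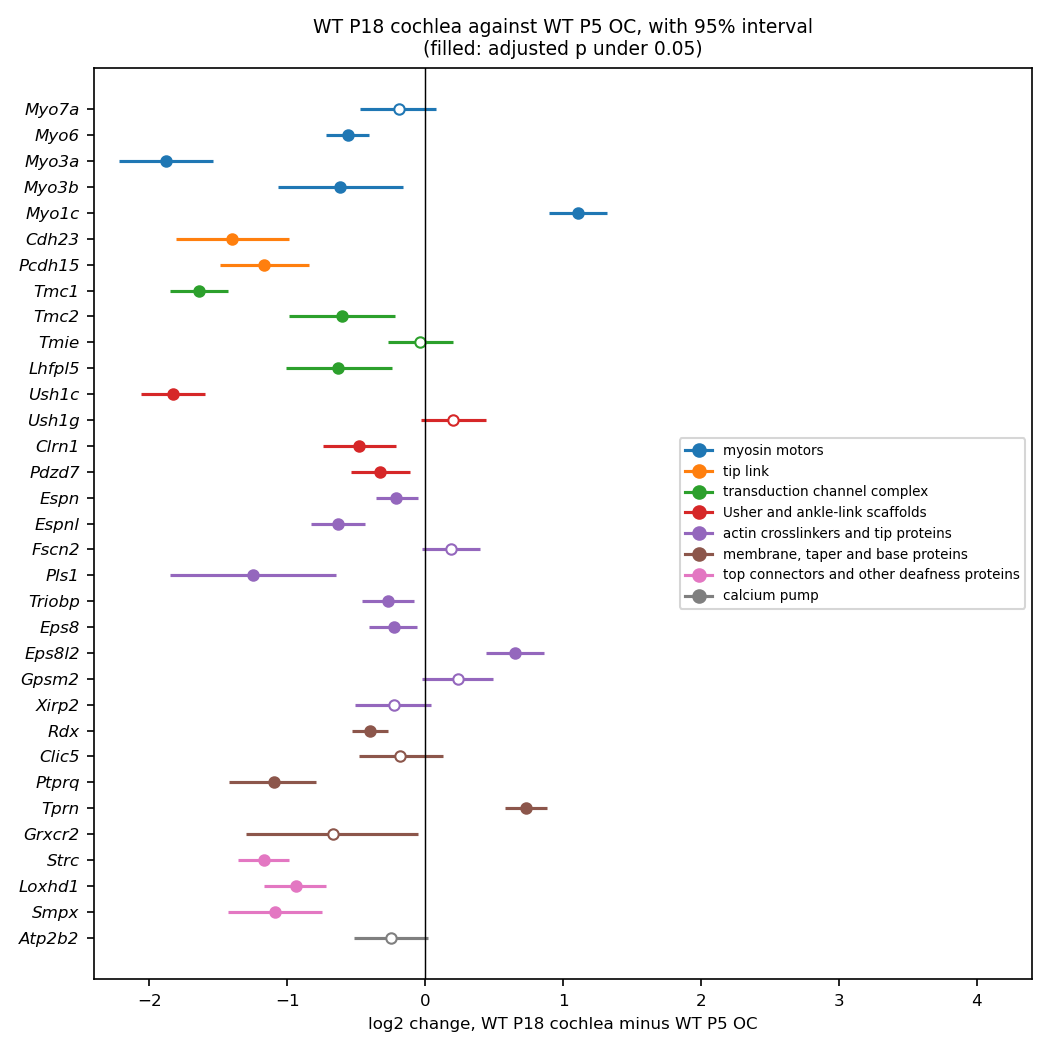
Log2 change (WT P18 cochlea minus WT P5 OC, x axis) of each member (y axis) with its 95% interval, coloured by role, filled where the adjusted p is under 0.05. Most points lie left of 0, down to -1.88 for *Myo3a*, and *Myo1c*, *Tprn* and *Eps8l2* are the filled points to the right.

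*Myo3a*, a myosin that moves to stereocilia tips, fell most. It had 4.26, 4.55 and 4.28 in the WT P18 cochlea, against 5.80, 6.23, 6.53, 6.18 and 6.45 in the WT P5 OC. The groups were far apart, with a change of -1.88 (SE 0.16, adjusted p = 7.8e-08), or 3.67-fold lower. The mean of 4.36 in the WT P18 cochlea lay below the lower quartile of signal on every array (4.54 or more). At so dim a level the size of the fall is uncertain. *Myo3b*, a relative of *Myo3a*, had -0.62 (adjusted p = 0.025).

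*Ush1c*, for harmonin, had 7.42, 7.34 and 7.41 in the WT P18 cochlea and 8.95, 9.40, 9.06, 9.31 and 9.36 in the WT P5 OC. It was 3.55-fold lower, with a change of -1.83 (SE 0.11, adjusted p = 1.1e-09). The other Usher and ankle-link genes changed less, *Clrn1* by -0.48 (adjusted p = 0.0041) and *Pdzd7* by -0.33 (adjusted p = 0.013), and *Ush1g*, at 0.20, did not pass (adjusted p = 0.15). A second *Pdzd7* probeset had -0.97 (adjusted p = 3.1e-06).

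*Tmc1* had 5.99, 6.07 and 5.98 in the WT P18 cochlea, against 7.41, 7.83, 7.53, 7.67 and 7.84 in the WT P5 OC, a change of -1.64 (SE 0.10, adjusted p = 1.7e-09). *Tmc2* had -0.60 (adjusted p = 0.011) and *Lhfpl5* -0.63 (adjusted p = 0.009). *Tmie*, at -0.04 (adjusted p = 0.82), was the 1 gene of the 4 measured in the channel complex that did not pass.

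*Cdh23* had 6.68, 6.66 and 6.78 in the WT P18 cochlea and 7.62, 8.20, 7.94, 8.37 and 8.40 in the WT P5 OC, a change of -1.40 (SE 0.19, adjusted p = 1.6e-05). Its tip link partner *Pcdh15* had -1.17 (adjusted p = 9.3e-06), but the dimmer second probeset of *Pcdh15* had -0.10 (adjusted p = 0.4). All 3 genes grouped as top connector and other deafness genes fell too, *Strc* by 1.17, *Smpx* by 1.09 and *Loxhd1* by 0.94 on the log2 scale.

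The 3 that rose belong to different roles. *Myo1c* had 9.04, 8.94 and 8.96 in the WT P18 cochlea, against 7.89, 8.03, 7.68, 7.90 and 7.86 in the WT P5 OC, a change of 1.11 (SE 0.10, adjusted p = 1.5e-07). *Tprn* had 7.38, 7.36 and 7.46 in the WT P18 cochlea and 6.59, 6.66, 6.66, 6.78 and 6.69 in the WT P5 OC, a change of 0.73 (SE 0.07, adjusted p = 4.3e-07). The 3 Tg/Tg P18 values of *Tprn*, given above, lay between those of the WT groups.

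*Eps8l2*, which encodes a protein of stereocilia tips, had 8.26, 8.47 and 8.41 in the WT P18 cochlea, against 7.62, 7.74, 7.61, 7.81 and 7.85 in the WT P5 OC, a change of 0.65 (SE 0.10, adjusted p = 3.8e-05). *Gpsm2* had the next largest positive value, with 7.99, 8.10 and 8.05 in the WT P18 cochlea and 7.54, 7.88, 7.84, 7.83 and 7.96 in the WT P5 OC. Its groups did not overlap, and its change of 0.24 (SE 0.12) did not pass (adjusted p = 0.11). It did pass without the third Tg/Tg array at P5 and after quantile normalization.

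The other 8 members that fell were *Pls1* (-1.25), *Ptprq* (-1.10), *Espnl* (-0.63), *Myo6* (-0.56), *Rdx* (-0.40), *Triobp* (-0.27), *Eps8* (-0.23) and *Espn* (-0.21) on the log2 scale. The 9 that did not pass were *Grxcr2* (-0.67, adjusted p = 0.071), *Atp2b2* (-0.25), *Xirp2* (-0.23), *Myo7a* (-0.19) and *Clic5* (-0.18), with *Tmie*, *Fscn2* (0.19), *Ush1g* and *Gpsm2*. *Grxcr2* and *Pls1* are the members for which the P5 values depended most on the replicate.

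Of the 17 HC markers 10 were lower and 4 higher in the WT P18 cochlea than in the WT P5 OC, with a median of -0.43. Of the 18 SC markers 12 were lower and 3 higher, with a median of -0.85, further down than that of the members (-0.48). Of the 25 further bundle genes 10 were lower and 7 higher, with a median of -0.12. Among all probesets 30.2% were lower and 19.8% higher. *Otoa*, which encodes otoancorin of the nonsensory cells, had the smallest adjusted p of that further list, with a change of -1.57 (adjusted p = 2.6e-08).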

How the data were processed

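The authors deposited log2 signals from 16 MoGene 1.0 arrays for 34760 probesets, between 2.09 and 13.72 with none missing. Their submission names limma, and the background correction and normalization are not given in the sources used here. No further normalization was applied. The number of arrays limits the precision.

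A linear model with a mean for each of the 4 groups was fitted to all arrays (limma 3.58.1, R 4.3.3, lmFit and eBayes, 12 residual degrees of freedom). Tests were two-sided, with Benjamini-Hochberg adjustment over every probeset within a contrast. A call was an adjusted p under 0.05, with no fold limit and no filter. Of the probesets, 21640 carry 1 gene symbol in the platform table and 1321 carry several.

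The members, the lists and the rule for naming genes were chosen with earlier results of these data known. The rule gives every array for members called in a genotype comparison, for the 3 members with the largest genotype change at each age, and for the 4 largest rises and falls between the WT groups. The fit was tested on simulated data. Alternatives were a replicate block, a block for P5 replicates 1 to 2 and 3 to 5, separate fits per age, only probesets brighter than the median mean signal, quantile normalization, trend and robust eBayes, array weights, the mean of Y-linked genes as a covariate, the most variable probeset, a fold of at least 1.5, and each array left out in turn. Genotype changes within each set of P5 replicates, and P18 alone with trend and robust eBayes, were added after the data were seen. Plots were drawn with matplotlib 3.10.9 under Python 3.11.15.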

Additional observations from a re-analysis of the deposited data

Results flagged for a closer look

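Of 66 groups of 5 P5 values (33 members in 2 genotypes), 1 held a value far from the others. *Ush1g*, for Sans, was 6.82 on the fourth Tg/Tg array, where the other 4 lay between 6.41 and 6.53, a gap of 0.717 of the range. Chance flags about 1 in 20 such groups.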

How the results depend on the processing

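At P18, in place of 1 member called, there were 0 with the replicate block, 0 after quantile normalization, 0 at a fold of at least 1.5, 2 in separate fits per age, 3 with P5 replicates 1 to 2 and 3 to 5 as a block, 3 with array weights (*Tprn*, *Xirp2* and *Smpx*), and 6 in the added fit of P18 alone with trend and robust eBayes (*Pls1*, *Xirp2*, *Clic5*, *Tprn*, *Smpx* and *Atp2b2*), where 2172 of all probesets were called. Leaving out 1 array gave 0 to 1, with 0 whenever a P18 array was left out. For the difference between the ages, in place of 0, there were 2 with P5 replicates 1 to 2 and 3 to 5 as a block, 1 among probesets brighter than the median mean signal, 7 with array weights, and 0 to 2 with 1 array left out. At P5, leaving out 1 array gave 0 to 2, and the other alternatives gave 0. Between the WT groups the count was 17 to 28 in place of 24. The cause of these shifts was not tested. The 17 log2 changes named for their size kept their direction under each alternative run for them. Changes of other comparisons near 0 did not all do so. At P5, 8 uncalled members turned negative with array weights, the furthest being *Myo3b* (-0.16), *Tmc2* (-0.15) and *Cdh23* (-0.11), and 5 changed sign after quantile normalization (-0.04 for *Tmc2* to 0.05 for *Grxcr2*). At P18 *Fscn2* had 0.03 with array weights. The sample names do not say whether same-numbered samples were paired. Correlations of the deviations of same-numbered samples were -0.22 to 0.36 at P5 and 0.00 to 0.07 at P18. At P5 they were 0.29 and 0.36 for the first 2 numbers, while pairs of different numbers reached 0.48. These values do not decide whether samples were paired. With the replicate block the counts were 0 at P5, 0 at P18, 0 for the difference and 25 between the WT groups. How far each signal lies above background was not given, so dim members such as *Myo3a* at P18 have only a measured level.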
